A study of Mus musculus with 6 samples.

Results

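A set of 9 complement genes, listed as made outside macrophages, was followed across 6 mouse osteosarcomas, 3 TKO and 3 DKO: the C1 proteases C1ra and C1s1, their inhibitor Serping1, the convertase components C2, C4b, C3 and Cfb, the stabiliser Cfp (properdin) and the membrane regulator Cd55. These 9 of 56196 listed genes were picked by name, with the C1q chains of macrophages left out. By label, TKO tumours were Osx1-Cre;Rb1lox/lox;p53lox/lox;SKP2-/- and DKO tumours were Osx1-Cre;Rb1lox/lox;p53lox/lox. By these labels all 6 tumours carried floxed Rb1 and p53 with a Cre driven in the Osx1 (Sp7) lineage, which Osx1-Cre marks from the osteoblast precursor on, and differed in SKP2, which selects proteins for ubiquitination by an SCF ligase. In both groups replicate 1 was male and replicates 2 and 3 were female. The labels give no age and no treatment, and they do not state whether the 2 female tumours of a group are from separate mice. The p-values cover only the variation among these 6 samples.

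Complement is a cascade of plasma and tissue proteins that tags and lyses cells and recruits leukocytes. The classical pathway starts when C1q binds a target and activates the proteases C1r and C1s, which cut C4 and C2 to form a C3 convertase. Cleaved C3 binds factor B to form a second convertase, which properdin holds together, while C1 inhibitor stops C1r and C1s and CD55 speeds the decay of both convertases. The liver makes most plasma complement, but fibroblasts and other mesenchymal cells secrete C1r, C1s, C3, C4 and C1 inhibitor, whereas properdin is known mainly from neutrophils, monocytes and macrophages.

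Levels are given as CPM, the reads of a gene scaled to a common library size after TMM normalization. Total gene counts were 20002918 to 22488819 in TKO and 17063231 to 21581482 in DKO. Skp2 had 0 counts in each TKO library, against 20, 64 and 46 counts in DKO1, DKO2 and DKO3. Gene totals of the floxed genes differed between groups: Rb1 was counted 2200, 1082 and 880 times in TKO1, TKO2 and TKO3, against 428, 351 and 379 times in DKO1, DKO2 and DKO3 (log2 fold change 1.61, adjusted p = 0.0419), and Trp53 203, 783 and 430 times in TKO, against 138, 118 and 124 times in DKO (1.75, adjusted p = 0.115). Gene totals do not show whether floxed exons were lost. The 11 macrophage markers summed to 1197 to 2987 CPM in TKO and 10.8 to 128 CPM in DKO, where the pan-leukocyte gene Ptprc had 0, 3 and 0 counts. The labelled tumour type was checked with 7 osteoblast markers. Col1a1, Runx2 and Spp1 were present in all 6 tumours, but Col1a1 had 209 CPM in TKO1, against 9947 to 30231 CPM in the others. The defining markers Sp7, Ibsp, Alpl and Bglap were high only in TKO2 and TKO3 (153 to 3904 CPM). They were at most 0.375 CPM in TKO1 and at most 22.9 CPM in DKO, with Ibsp at 0 in TKO1, DKO2 and DKO3. Markers of endothelium (147 to 744.5 CPM in TKO, 8.23 to 10 CPM in DKO), skeletal muscle (252 to 7776 CPM in TKO, 3.19 to 7.84 CPM in DKO) and red cells (88.8 to 1167 CPM in TKO, 0.498 to 1.28 CPM in DKO) were higher in every TKO tumour. Hepatocyte markers, which stand for the main source of plasma complement, summed to 0.145 to 4.54 CPM in TKO and 0.416 to 19.7 CPM in DKO. TKO1 stood apart, with log2 CPM correlations across genes of 0.83 and 0.805 with TKO2 and TKO3, which correlated at 0.915, while the DKO pairs correlated at 0.933 to 0.954. In bulk tumours, fewer cells of a type cannot be told apart from less RNA per cell.

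How much of each gene can be counted differed among the 9 members. Reads that fit several genes were not assigned, so the longest transcript of each member was searched for 50-base stretches that recur in a transcript of another gene. C3, Cfp and Serping1 shared 0% of theirs. C1ra shared 48% with its mouse duplicate C1rb, C1s1 shared 24.3% with C1s2, C4b shared 35.2% with C4a and Cd55 shared 10.7% with Cd55b. C2 and Cfb overlap Gm20547, a gene model on the same strand of chromosome 17 (34856412 to 34882042) that covers 58% of the C2 stretches and 81.4% of the Cfb stretches and itself has 0 counts in all 6 libraries. The counts of C1ra, C1s1, C4b, C2 and above all Cfb may therefore understate their transcripts in both groups, and the part of this in the differences was not tested. The duplicates themselves had few counts: C1rb had 1 count in 1 DKO library and 0 in the other 5, and C1s2 had 0, 4 and 8 counts in TKO, against 3, 9 and 31 in DKO.

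**Figure D1:**
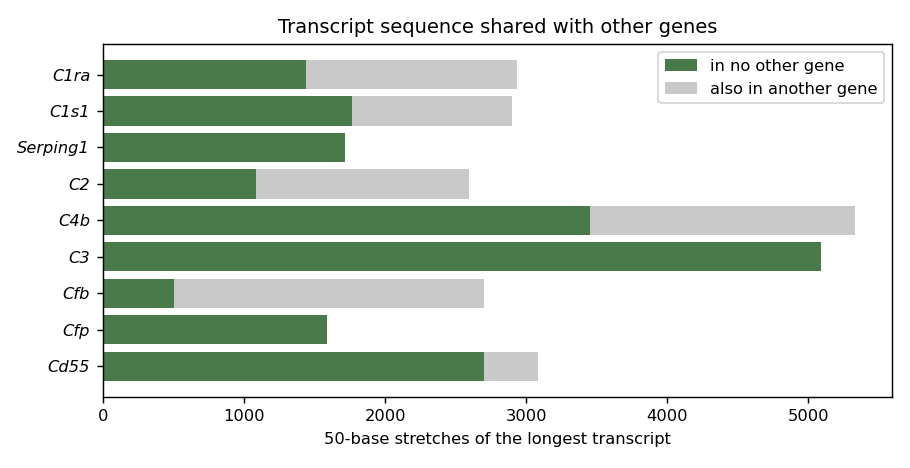
Number of 50-base stretches (x axis) in the longest annotated transcript of each member (y axis), divided into stretches found in no other gene (green) and also in another gene (grey). C3, Cfp and Serping1 have no grey part, and Cfb is mostly grey, with 81.4% of its stretches shared.

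The sequence just before the transcription start is shown for C3, which differed most in level, for Cfp, which changed in the opposite direction, and for C1s1, the C1 protease with the greater difference. The 250 bases before the start are RefSeq's (GRCm38.p6), all on the minus strand and written 5′ to 3′. Capitals mark letters that match GGGANNNNCC (a loose form of the NF-kappaB motif) or TTGCNNAA (a loose form of the C/EBP motif) on either strand. NF-kappaB and C/EBP factors are known to act on acute-phase genes.
C3 (chr17:57228137-57228386): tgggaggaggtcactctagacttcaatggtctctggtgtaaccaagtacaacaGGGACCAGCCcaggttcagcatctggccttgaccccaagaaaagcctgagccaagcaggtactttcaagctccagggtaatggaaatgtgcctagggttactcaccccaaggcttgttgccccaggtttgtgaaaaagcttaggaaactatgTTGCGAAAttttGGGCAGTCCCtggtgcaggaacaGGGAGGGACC
Cfp (chrX:20931556-20931805): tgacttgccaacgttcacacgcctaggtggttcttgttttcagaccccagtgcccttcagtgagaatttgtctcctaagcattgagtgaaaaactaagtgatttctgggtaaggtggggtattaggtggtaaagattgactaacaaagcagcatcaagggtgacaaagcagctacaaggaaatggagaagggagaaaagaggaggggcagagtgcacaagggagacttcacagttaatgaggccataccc
C1s1 (chr6:124542322-124542571): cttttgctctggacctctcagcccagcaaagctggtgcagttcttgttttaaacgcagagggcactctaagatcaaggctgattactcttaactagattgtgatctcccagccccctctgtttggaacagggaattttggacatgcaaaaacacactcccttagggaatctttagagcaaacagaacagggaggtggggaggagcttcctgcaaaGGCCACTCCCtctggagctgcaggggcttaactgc

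The C3 window held 3 matches to GGGANNNNCC and 1 to TTGCNNAA. The TTGCNNAA match lay 45 to 38 bases before the start, and none of the 4 overlapped another. The Cfp window held neither, and the C1s1 window held 1 match to GGGANNNNCC, 35 to 26 bases before the start. A second annotated C1s1 start had 1 match to TTGCNNAA in place of it. Of the 5 members with a promoter in the table (C1ra, C1s1, C3, Cfp and Cd55), 3 had GGGANNNNCC, against 17.6% of 32851 promoters, and 2 had TTGCNNAA, against 9.56%. The members were counted by gene over 6 windows, and C1s1 had each motif in a different window. The shares of all promoters are by single window, so the units differ. TTCNNNGAA, the STAT motif known as GAS, was in 0 of the 5 members, against 7.02% of promoters. GAAANNGAAA, the interferon-response motif, was likewise in 0, against 2.98%. These are letter matches in short windows and were not tested as sites.

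Among the 9 members, Cfp rose in TKO tumours and none fell by edgeR's quasi-likelihood test with Benjamini-Hochberg adjustment over all genes. C3, the central component of complement, was 22.6-fold lower in mean CPM in TKO without passing that test, and C1s1, C2 and C4b were also lower in every TKO tumour than in any DKO tumour. C1ra, Serping1 and Cd55 overlapped between groups. Cfb was too low to test. Of the 8 members tested, 1 was called higher (12.5% of them), against 4.89% of all 15361 tested genes called higher, 2.47% called lower and 7.36% called in either direction. The groups did not overlap for 5 of the 8, against 32.9% of all tested genes. The median log2 fold change of the 8 was -1.56, against 0.09 over all tested genes. At an unadjusted p under 0.05 there were 4 members, C1s1, C2 and C3 on the lower side and Cfp on the higher. DESeq2 called 3 members, with C2 and C3 lower and Cfp higher, and limma-voom called C3 alone.

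**Figure D2:**
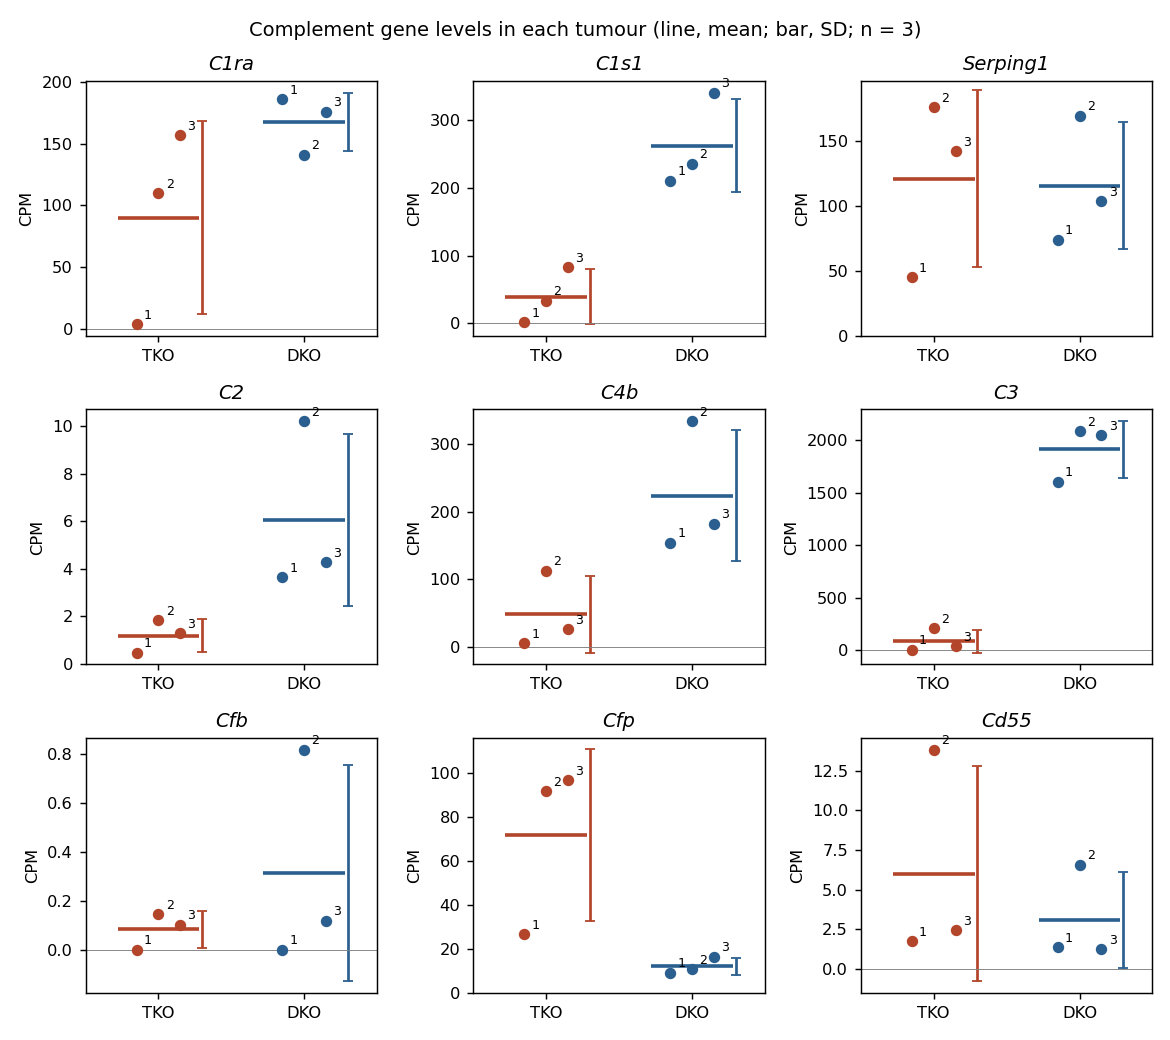
CPM (y axis, linear, a separate scale in each panel) of the 9 members in each TKO and DKO tumour, numbered by replicate; lines are means and bars are SD (n = 3). For C1s1, C2, C4b and C3 all TKO points lie under all DKO points, and for Cfp they lie above.

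The C1 proteases lie side by side on chromosome 6. C1ra (ENSMUSG00000055172.10, 124512405 to 124523443, GRCm38), the protease that activates C1s, had 3.58, 110 and 157 CPM in TKO1, TKO2 and TKO3, against 186, 141 and 176 CPM in DKO1, DKO2 and DKO3. TKO1 was far below all others and TKO3 lay within the DKO range. The log2 fold change was -0.90 (SE 1.03, adjusted p = 0.627). C1s1 (ENSMUSG00000038521.17, 124530345 to 124542359), the protease that cuts C4 and C2, had 1.33, 33.4 and 83.1 CPM in TKO1, TKO2 and TKO3, against 211, 236 and 341 CPM in DKO1, DKO2 and DKO3. Every TKO tumour was below every DKO tumour, and the group means differed 6.69-fold. The log2 fold change was -2.74 (SE 1.16, adjusted p = 0.200), and without TKO1 it was -2.18 and passed (adjusted p = 0.0331). TKO1 also had the lowest summed level of 7 fibroblast markers, most of it from Col3a1 and Dcn: 1134 CPM in TKO1, against 10085 and 3660 CPM in TKO2 and TKO3 and 6538 to 14819 CPM in DKO. TKO1 was the lowest tumour for 3 of the 7, Pdgfra, Dcn and Lum, but not for Col3a1, Dpt, Pi16 or Fap. The last 2 were lower in every DKO tumour, with Fap at 10.9 CPM in TKO1 and 0.712 to 8.61 CPM in DKO. Pdgfra, which was also the gene most like C1ra over the 6 tumours, had 4.54 CPM in TKO1 and 183 to 334 CPM in the other 5 tumours. The part of cell content in the low C1ra and C1s1 of TKO1 was not tested.

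The 2 proteases did not keep the same proportion. The count ratio of C1ra to C1s1 was 2.66, 3.29 and 1.89 in TKO1, TKO2 and TKO3, against 0.882, 0.598 and 0.516 in DKO1, DKO2 and DKO3. C1ra exceeded C1s1 in every TKO tumour and in no DKO tumour, a log2 difference of 1.97 (exact permutation test, two-sided p = 0.1, which is the minimum for 3 tumours a group; 0.12 adjusted over 6 ratios). A ratio within a library is free of scaling, but both genes share sequence with a duplicate, so its absolute value is not a ratio of transcripts.

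Serping1 (ENSMUSG00000023224.12, chromosome 2, 84765387 to 84775444), the C1 inhibitor that inactivates both proteases, was at similar levels in the groups. It had 45.3, 176 and 142 CPM in TKO1, TKO2 and TKO3, against 74, 169 and 104 CPM in DKO1, DKO2 and DKO3. The ranges overlapped, with a log2 fold change of 0.07 (SE 0.55, adjusted p = 0.954), and its sign changed with the fit. Set against C1s1, however, the inhibitor stood higher in TKO: the Serping1 to C1s1 count ratio was 33.5, 5.27 and 1.71 in TKO1, TKO2 and TKO3, against 0.351, 0.717 and 0.305 in DKO1, DKO2 and DKO3. Serping1 counts exceeded C1s1 counts in all TKO tumours and in none of the DKO tumours. The log2 difference was 3.98 (exact permutation test, two-sided p = 0.1, and 0.12 adjusted). C1s1 did not overlap between groups and Serping1 did. The same did not hold against C1ra: Serping1 had fewer counts than C1ra in TKO3 (2785 against 3073) and more in DKO2 (3315 against 2762).

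C2, C4b and Cfb lie within the MHC region of chromosome 17. C4b (ENSMUSG00000073418.4, 34728380 to 34743882), the C4 protein that binds to targets after C1s cuts it, had 5.04, 113 and 26.5 CPM in TKO1, TKO2 and TKO3, against 154, 334 and 182 CPM in DKO1, DKO2 and DKO3. TKO2 came nearest to DKO and TKO1 was lowest. The log2 fold change was -2.22 (SE 1.00, adjusted p = 0.224), and without TKO2 it was -3.82 (adjusted p = 0.0768). C4a, its near-duplicate, had 0.816 to 1.25 CPM in TKO and 1.54 to 2.37 CPM in DKO (log2 fold change -0.88, adjusted p = 0.346), so few of the reads assigned to either gene went to C4a.

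C2 (ENSMUSG00000024371.14, 34862604 to 34898265), the protease subunit of the classical C3 convertase, was counted 11, 38 and 25 times in TKO1, TKO2 and TKO3, against 73, 200 and 72 times in DKO1, DKO2 and DKO3. That made 0.458, 1.83 and 1.27 CPM in TKO, against 3.64, 10.2 and 4.27 CPM in DKO. The groups did not overlap, the means differed 5.08-fold, and the log2 fold change was -2.34 (SE 0.75, adjusted p = 0.111; 0.0134 by DESeq2). Counts of 1 strand alone gave -0.99 and -0.64. The libraries carry no strand mark, and C2 shares 161 exon bases with Zbtb12, a zinc-finger gene on the other strand, whose part in this was not tested. Cfb (ENSMUSG00000090231.10, 34856374 to 34862518), the protease subunit of the alternative convertase, was counted 0, 3 and 2 times in TKO1, TKO2 and TKO3, against 0, 16 and 2 times in DKO1, DKO2 and DKO3. A count of 0 allows up to 3 counts, 0.125 CPM in TKO1 and 0.149 CPM in DKO1. With 81.4% of its stretches shared with Gm20547, these counts do not show that Cfb was silent. The Cfb to C2 ratio overlapped between groups (exact two-sided permutation p = 0.2).

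C3 (ENSMUSG00000024164.15, 57203970 to 57228136 on chromosome 17) was the member with the highest mean level per length in DKO and was outranked by 4 others in TKO. It had 3.79, 209 and 41.4 CPM in TKO1, TKO2 and TKO3, against 1604, 2088 and 2051 CPM in DKO1, DKO2 and DKO3. All TKO tumours lay below all DKO tumours, with means of 84.9 ± 109 CPM in TKO and 1915 ± 269 CPM in DKO (SD, n = 3). Within TKO the highest tumour exceeded the lowest 55.2-fold, within DKO 1.3-fold. The log2 fold change was -4.50 (SE 1.29), with an unadjusted p of 0.0106 and an adjusted p of 0.0871 in edgeR. It passed by DESeq2 (0.000307), by limma-voom (0.0445) and without TKO1 (0.0259, log2 fold change -3.94), and without TKO2 the log2 fold change was -6.39 (0.058). The call thus depended on the tool and on TKO1, while the sign was the same in every alternative run. C3 made up 4.31, 28 and 7.53% of the summed CPM of the 9 members in TKO1, TKO2 and TKO3, against 71.5, 69.7 and 71.3% in DKO1, DKO2 and DKO3. That sum was 87.9, 749 and 550.3 CPM in TKO, against 2243, 2997 and 2877 CPM in DKO. The C3 to C4b count ratio was 0.753, 1.86 and 1.57 in TKO1, TKO2 and TKO3, against 10.4, 6.24 and 11.3 in DKO1, DKO2 and DKO3, so C3 stood lower in TKO than C4b did (log2 difference -2.79, exact two-sided permutation p = 0.1; 0.12 adjusted).

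Cfp (ENSMUSG00000001128.7, chromosome X, 20925454 to 20931555), coding for properdin, was the member that rose. It had 26.6, 91.9 and 96.8 CPM in TKO1, TKO2 and TKO3, against 9.21, 10.7 and 16.5 CPM in DKO1, DKO2 and DKO3. The groups did not overlap, with means of 71.8 ± 39.2 CPM in TKO and 12.1 ± 3.85 CPM in DKO (SD, n = 3), 5.91-fold apart. The log2 fold change was 2.56 (SE 0.55, adjusted p = 0.0405 in edgeR). The call was lost by limma-voom (0.0735) and with near-absent genes left out (0.0756). It was also lost without TKO2 (0.0954), TKO3 (0.0941), DKO1 (0.134), DKO2 (0.157) or DKO3 (0.117), and it held without TKO1 (0.0055) and with sex as a covariate (0.0262). Cfp was listed as made outside macrophages. The macrophage markers were also higher in TKO, where 10 of 11 rose. Their sums were 1197, 2987 and 2487 CPM in TKO1, TKO2 and TKO3, against 10.8, 128 and 98.1 CPM in the DKO tumours. Within TKO, Cfp was highest in TKO3 and the macrophage sum in TKO2. Cd68, the marker that was not called, made up 5.48, 122 and 90.8 CPM of the sums in DKO1, DKO2 and DKO3. A sum without it, chosen after seeing the data, was 1141, 2711 and 2194 CPM in TKO and 5.28, 6.34 and 7.36 CPM in DKO. The 9 neutrophil markers had sums of 15.9 to 55.3 CPM in TKO and 1.53 to 4.33 CPM in DKO. Csf3r, Elane, Ngp, Retnlg and S100a9 were at 0 in all DKO libraries, but S100a8 had 40, 16 and 33 counts there. Camp was highest in DKO1, at 2.34 CPM, against 0.417 to 1.69 CPM in TKO. All tested markers of endothelium (5), skeletal muscle (4), red cells (4) and epithelium (2) were called higher in TKO as well. The part of these cells in the Cfp rise was not tested. In DKO1, DKO2 and DKO3, Cfp was counted 185, 210 and 278 times, while Laptm5, a gene of blood-derived cells, was counted 0, 1 and 0 times and the lysosomal macrophage marker Cd68 was counted 110, 2385 and 1529 times.

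**Figure D3:**
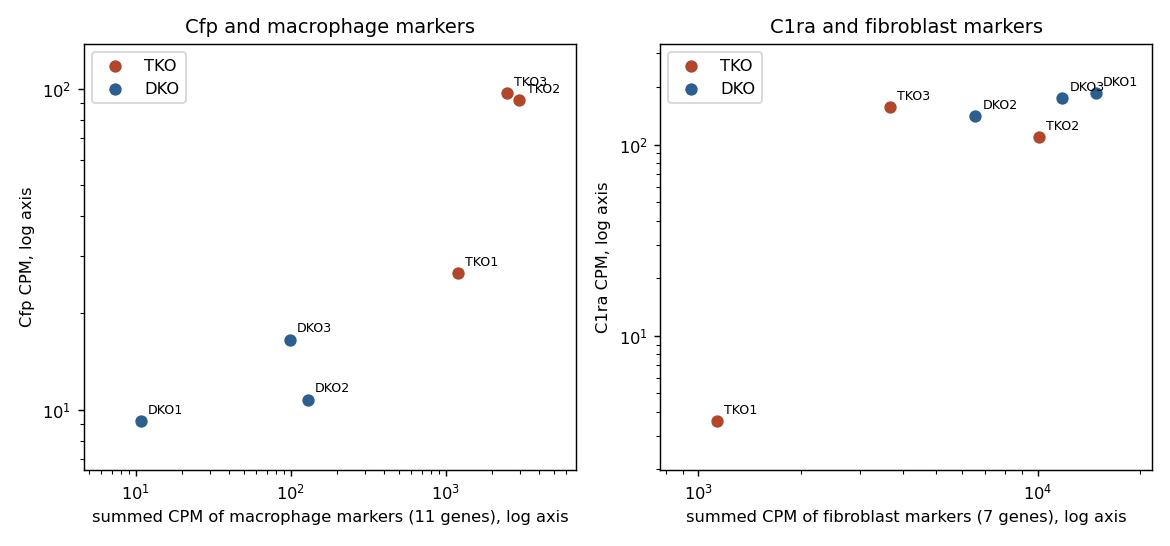
Left, Cfp CPM against the summed CPM of 11 macrophage markers, mostly Cd68 in DKO2 and DKO3; right, C1ra CPM against the summed CPM of 7 fibroblast markers; each point is a tumour and all axes are logarithmic. TKO tumours lie at the upper right for Cfp, and TKO1 lies alone at the lower left for C1ra, at 3.58 CPM.

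Cd55 (ENSMUSG00000026399.12, chromosome 1, 130439027 to 130462744), the decay-accelerating factor of the cell surface, was low in both groups. It had 1.75, 13.8 and 2.45 CPM in TKO1, TKO2 and TKO3, against 1.39, 6.59 and 1.25 CPM in DKO1, DKO2 and DKO3. The ranges overlapped, with 1 high tumour in each group, TKO2 and DKO2 (log2 fold change 0.96, SE 1.05, adjusted p = 0.607). Without TKO2 the log2 fold change was -0.54. Its duplicate Cd55b had 0 counts in all 6 libraries. Relative to C3, both Cd55 and Cfp stood higher in TKO, with log2 differences of 6.67 and 8.28 (exact two-sided permutation p = 0.1 each; 0.12 adjusted). The Cd55 to C3 count ratio was 0.464, 0.0662 and 0.0596 in TKO1, TKO2 and TKO3, against 0.000885, 0.00317 and 0.000622 in DKO1, DKO2 and DKO3. The Cfp to C3 count ratio was 6.99, 0.439 and 2.33 in TKO1, TKO2 and TKO3, against 0.00576, 0.00515 and 0.00806 in DKO1, DKO2 and DKO3. Neither ratio overlapped between groups, although Cd55 itself did. Cfp was higher and C3 lower in every TKO tumour than in any DKO tumour. The Cfp to C3 ratio therefore had to be apart, and its permutation p adds nothing to that.

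Compared per length of sequence that can be counted, here CPM per kilobase of stretches found in no other gene, the members fell into a different order in the groups. In TKO the order was Serping1 at 70.5 ± 39.4, C1ra at 62.4 ± 54.4, Cfp at 45.2 ± 24.7, C1s1 at 22.2 ± 23.3, C3 at 16.7 ± 21.5 and C4b at 13.9 ± 16.5 CPM per kilobase (SD, n = 3). Cd55, C2 and Cfb followed at 2.23, 1.09 and 0.163 CPM per kilobase. Of these neighbours only C2 and Cfb had ranges that did not overlap. In DKO, C3 led at 376 ± 52.9 CPM per kilobase, followed by C1s1 at 149 ± 39.1, C1ra at 116 ± 16.3, Serping1 at 67.3 ± 28.4 and C4b at 64.7 ± 28.1 CPM per kilobase. Cfp, C2, Cd55 and Cfb followed at 7.66, 5.55, 1.14 and 0.62 CPM per kilobase. Neighbours with ranges apart in DKO were C3 above C1s1, C4b above Cfp and C2 above Cd55.

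The rest of the pathway was followed through 49 other complement genes, of which 25 were tested. Of these, 9 rose and 0 fell in edgeR, against 4.89% of all tested genes called higher and 2.47% called lower. In edgeR 14 had an unadjusted p under 0.05, while DESeq2, which tested 45 of the 49, called 16 higher and 0 lower. C1qa, C1qb, C1qc, C5ar1, C5ar2, Itgam and Itgax had 0 counts in every DKO library, so they could only be called higher. With near-absent genes left out, 14 were tested and 1, Itgb2, was called. The median log2 fold change of the 25 was 3.21, which stays the same with genes at 0 in DKO set to their lower bound. The risers were the C1q chains and the receptors. C1qa, C1qb and C1qc, the recognition chains that carry C1r and C1s, had 110 to 389 CPM across the TKO libraries and 0 counts in every DKO library, at least 3410-fold higher in TKO against a floor of 3 counts over the DKO group (adjusted p = 0.0111 each). Of 8 receptor genes, 6 were tested and all 6 rose. C3ar1, the receptor for the C3a fragment, had 25.6, 74.7 and 43.7 CPM in TKO1, TKO2 and TKO3, against 0.249, 2.35 and 0.0594 CPM in DKO1, DKO2 and DKO3 (adjusted p = 0.0417). Both C5a receptor genes, C5ar1 and C5ar2, had 0 counts in DKO and were at least 482-fold and at least 78.4-fold higher in TKO against that floor (adjusted p = 0.0144 and 0.0312). The complement receptor 3 and 4 chains Itgam, Itgax and Itgb2 rose too, with Itgb2 at 46.6, 133 and 110 CPM in TKO1, TKO2 and TKO3, against 5.13, 3.58 and 11.1 CPM in DKO1, DKO2 and DKO3 (adjusted p = 0.0214). Leukocytes carry these receptors, and their rise ran beside that of the macrophage markers. The part of cell number was not tested.

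Outside C1q and the receptors, 0 of 16 tested complement genes passed in edgeR, where 5 had an unadjusted p under 0.05, while DESeq2, with more genes tested, called 6 higher, Cd59a, Clu and Fcna among them, and Cfd and Vtn, which edgeR did not test. Cd59a, which blocks the membrane attack complex, had 0.792, 7.62 and 82.3 CPM in TKO1, TKO2 and TKO3, against 1.24, 1.43 and 0.712 CPM in DKO1, DKO2 and DKO3 (adjusted p = 0.119). Clu, the fluid-phase inhibitor clusterin, had 20.9, 108 and 29.8 CPM in TKO1, TKO2 and TKO3, against 2.84, 14 and 0.237 CPM in DKO1, DKO2 and DKO3 (adjusted p = 0.187). Masp1, a protease of the lectin pathway related to C1r and C1s, had 63.2, 39.9 and 3.21 CPM in TKO1, TKO2 and TKO3, against 225, 73.5 and 149 CPM in DKO1, DKO2 and DKO3 (adjusted p = 0.230). Of 7 terminal components 2 were tested, and all 7 stayed under 5 CPM in every tumour. C8a and C9 had 0 counts in all 6 libraries, and C6 and C7 had at most 13 counts in any.

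**Figure D4:**
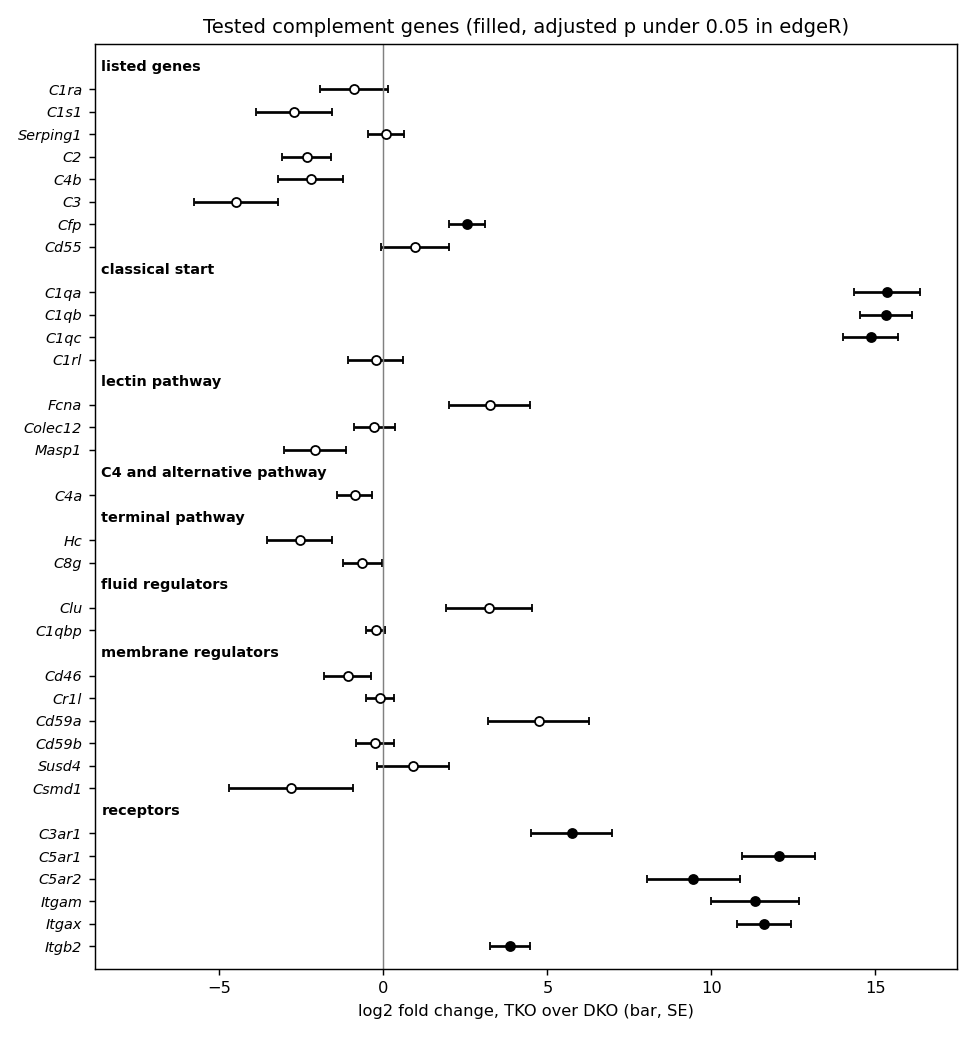
Log2 fold change of TKO over DKO (x axis, bars are SE) for the 8 tested members and other tested complement genes (y axis), grouped by role; filled points passed an adjusted p of 0.05 in edgeR. Filled points are Cfp, the C1q chains and the receptors, all to the right of 0; C3 lies furthest left, at -4.50. Fold changes of genes with 0 counts in DKO depend on the prior count.

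Inflammatory cytokines are known to induce complement genes, C3 among them. A list of 12 inflammatory genes and one of 18 known regulators were therefore set beside the members. Of the 12, 5 fell in TKO and none rose, against 2.47% of all tested genes called lower. The median log2 fold change of the 12 was -3.92. Both lists were chosen with earlier results of these data known, so their shares are descriptions only. Lcn2, an iron-binding acute-phase protein, had 2.54, 6.41 and 1.12 CPM in TKO1, TKO2 and TKO3, against 772, 1516 and 403 CPM in DKO1, DKO2 and DKO3 (adjusted p = 0.0131). Saa3, a serum amyloid gene of stromal cells, had 0.709, 16.9 and 1.43 CPM in TKO1, TKO2 and TKO3, against 6125, 1602 and 992 CPM in DKO1, DKO2 and DKO3 (adjusted p = 0.0333). In both genes, as in C3, TKO2 was the highest TKO tumour. Nos2, Ccl2 and Cxcl1 fell as well (log2 fold changes -5.76, -3.98 and -5.39, adjusted p = 0.0303, 0.0362 and 0.0252). Serpina3n, an acute-phase protease inhibitor, had 2.54, 72.9 and 10.7 CPM in TKO1, TKO2 and TKO3, against 937, 1140 and 1439 CPM in DKO1, DKO2 and DKO3 (adjusted p = 0.0503). Il1b, the interleukin-1 beta gene, lay on the higher side in TKO, at 1.88, 12.3 and 2.29 CPM in TKO1, TKO2 and TKO3, against 0, 0.255 and 0 CPM in DKO1, DKO2 and DKO3 (log2 fold change 5.88, adjusted p = 0.0681). Of the 12, 10 had a negative and 2 a positive log2 fold change. Il6, which codes for the cytokine interleukin-6, had 0.208, 5.64 and 1.53 CPM in TKO1, TKO2 and TKO3, against 17.8, 52.6 and 37.1 CPM in DKO1, DKO2 and DKO3 (adjusted p = 0.0828).

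Among the 18 regulators, 2 fell and none rose, against 2.47% of all tested genes called lower. Osmr, the receptor subunit for oncostatin M, had 12.5, 81.4 and 32.2 CPM in TKO1, TKO2 and TKO3, against 325, 593 and 427 CPM in DKO1, DKO2 and DKO3 (log2 fold change -3.42, SE 0.71, adjusted p = 0.0365). Relb, an NF-kappaB subunit, had 26.2, 42.5 and 22.6 CPM in TKO1, TKO2 and TKO3, against 89.9, 88.3 and 74.3 CPM in DKO1, DKO2 and DKO3 (log2 fold change -1.47, SE 0.32, adjusted p = 0.0412). Il1r1, the interleukin-1 receptor, had 56.6, 75.5 and 21.5 CPM in TKO1, TKO2 and TKO3, against 217, 175 and 206 CPM in DKO1, DKO2 and DKO3 (adjusted p = 0.0531). The interferon-pathway factor Irf1 overlapped between groups (log2 fold change 0.08). Each call of a non-member named here held in at most 4 of the 6 fits that left out 1 library. Without DKO3, edgeR called 0 genes of any kind (3017 at an unadjusted p under 0.05, 1131 called with all libraries), and without DKO2 it called 2.

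**Figure D5:**
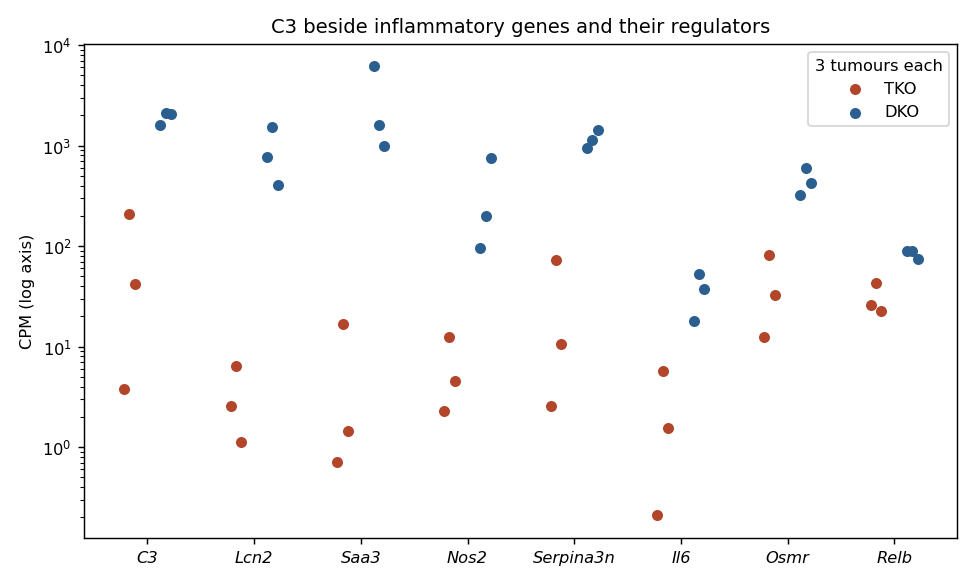
CPM (logarithmic y axis) of C3, 5 inflammatory genes and the regulators Osmr and Relb in 3 TKO (red) and 3 DKO (blue) tumours, replicates 1 to 3 from left to right. All red points lie under all blue points for each of the 8 genes, of which C3, Serpina3n and Il6 did not pass an adjusted p of 0.05.

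The genes whose pattern over the 6 tumours was most like that of C3 were Eno2, a glycolytic enzyme, Hpse, the enzyme heparanase, and Sash1, with Pearson r of log2 CPM of 0.996, 0.996 and 0.995 (n = 6). Eno2 had 0.625, 15.5 and 3.26 CPM in TKO1, TKO2 and TKO3, against 77.9, 129 and 128 CPM in DKO1, DKO2 and DKO3, the same order within TKO as C3. For Cfp they were Arsb, a lysosomal sulfatase, Tma7 and Rxrb, a retinoid receptor (r = 0.995, 0.994 and 0.991), with Arsb at 170.4, 411 and 462 CPM in TKO1, TKO2 and TKO3, against 97.8, 106 and 124 CPM in DKO1, DKO2 and DKO3. For Serping1 they were Ficd, Gstm4 and Zfp36l1 (r = 0.98, 0.978 and 0.976). Among the members themselves the closest pairs were C3 with C4b (r = 0.973) and C2 with C4b (r = 0.947). With 2 groups of 3 tumours, such values mix the difference between groups with the spread inside them and are descriptions only.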

How the data were processed

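Polyadenylated RNA from the 6 tumours was sequenced on an Illumina HiSeq. Per library, the authors deposited read counts for each gene, and the same for the series in one table. STAR 2.6.1 and mm10 are named per the submitters' processing notes, and which gene annotation was used is not stated in these sources. The counts carry no normalization. Counts of reads on either strand were used, since the protocol marks no strand; the series table held the same values (0 genes differed). The 4 lines of reads assigned to no gene were left out (5.1 to 6.53% of reads fitted more than 1 gene and 3.94 to 4.7% more than 1 place).

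IDs were matched to GENCODE M21 (GRCm38) symbols (55154 of 56196). Genes passing filterByExpr (minimum count 10; 15361) were scaled by TMM and tested with edgeR 4.0.16 (quasi-likelihood, robust, R 4.3.3), with Benjamini-Hochberg adjustment over all of them and a threshold of 0.05; adjusted p-values are from it unless another tool is named. Alternatives used DESeq2 1.42.0, limma 3.58.1, other scalings, filters, covariates, strand columns and leaving out libraries. The procedure was tested on simulated data with the same spread set for every gene, which does not show how it performs at the spread of these tumours. Ratios of members used counts plus 0.5. Members, lists and the rule for named genes (all members, other complement genes past 0.05 and duplicates of members, regulators and inflammatory genes past 0.05 and the 3 of each with the smallest p, the 3 non-members most like C3, Serping1 or Cfp) were chosen with earlier results of these data known. Other genes were named after their values were seen. Reads carry no molecular identifiers, so a floor of 3 counts covers counting error only. Some results are not reported here.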

Additional observations from a re-analysis of the deposited data

How the results depend on the processing

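Leaving out 1 library moved the count of genes called between 0 and 2385 (1131 with all), of members called between 0 and 3 (1 with all), and of other complement genes called between 0 and 11 (9 with all). DESeq2 called 3111 genes, 3 members and 16 other complement genes. With near-absent genes left out these were 158, 0 and 1; fewer genes were tested. With a replicate block they were 295, 0 and 3, and the call of Cfp was lost (adjusted p = 0.0695). Libraries that share a number correlated at -0.00699, 0.00889 and -0.0167 in their deviations from group means. Those with different numbers correlated at -0.00927 to 0.0174. With 3 tumours a group, these values cannot show whether the numbers pair the tumours. Limma-voom called 1 member, C3, in place of Cfp.

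Direction was the same in all 16 alternatives for C1ra, C1s1, C2, C3, C4b and Cfp. Serping1 reversed by limma-voom (-0.07), under the block (-0.06), with sex as a covariate (-0.09) and without TKO2 (-0.30), TKO3 (-0.06), DKO1 (-0.19) or DKO3 (-0.02), and Cd55 reversed without TKO2 (-0.54, against up to 2.16 without DKO2). Of the ratios, Cfb to C2 reversed with second strand counts (-0.18, against 1.44; 1.55 with first strand counts), and the cause was not tested. Leaving out 1 library, the ratio differences ran from 2.82 to 4.97 for Serping1 to C1s1, 1.79 to 2.20 for C1ra to C1s1, 0.45 to 2.25 for Cfb to C2, -3.06 to -2.40 for C3 to C4b, 5.71 to 7.37 for Cd55 to C3 and 7.35 to 9.35 for Cfp to C3. Depth limits Cfb, at 0 to 16 counts a library, and C2, at 11 to 200.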
